A study of Mus musculus with 48 samples.

Results

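TRBV4 is the mouse T cell receptor β-chain (TCRβ) variable segment whose protein is called Vβ10 in the older nomenclature. All clones read with TRBV4 were taken from the repertoires of tumors and tumor-draining lymph nodes (dLNs), giving 38057 of the 959731 clone entries in 48 libraries. After each library was drawn to 6 reads per sorted cell, 35667 of 906405 entries remained for TRBV4. The segment was chosen from the values of its abundant CD8+ T cell clones in tumors. The read shares in CD8+ tumors, the pairing with TRBJ1-2, the similarity of CDR3 sequences, the left and right differences and the dLN shares of these clones are therefore given as descriptions.

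Lewis lung carcinoma (LLC) cells, a line from the C57BL/6 strain, were inoculated under the skin on both sides of the back of 4 female C57BL/6 mice, 8 weeks old, numbered 5 to 8. The labels name no drug, allele or transgene for any group. On day 13, CD4+ and CD8+ T cells were sorted from 2 fragments of each tumor, and CD44hi (antigen-experienced) CD4+ and CD8+ T cells from the dLN of each side, so tumor and dLN groups also differ in the CD44 gate. Sorted cells were negative for intravenous staining and lineage markers and positive for TCRβ. The files hold TCR clones only, so markers of cell types could not be checked. This gave 16 dLN and 32 tumor libraries, or 8 repertoires per group after the fragments of a tumor were added. The deposited libraries held 326582 to 4840722 reads and the drawn libraries 131070 to 2035380, in which 1 read was 4.91e-05% to 0.000763% of a library. The drawn libraries held 117 to 336 TRBV4 clones per CD4+ tumor fragment, 443 to 766 per CD4+ dLN, 345 to 1846 per CD8+ tumor fragment and 1265 to 2116 per CD8+ dLN.

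In developing T cells, a V, a D and a J segment are joined to form the TCRβ gene, and bases are trimmed and added at the joints. The joint encodes the third complementarity-determining region (CDR3), the loop that lies over the peptide, whereas the V segment encodes the other two loops. T cells that share V, J and CDR3 nucleotide sequence are called a clone. Different nucleotide sequences can encode the same CDR3, in which case the rearrangements arose separately, errors of PCR or sequencing aside.

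In the GENCODE annotation of GRCm38, the TRBV4 gene lies on the plus strand at chr6:41059394-41059886 and has 2 exons. The second exon, chr6:41059592-41059886, ends inside the CDR3. TRBJ1-1 and TRBJ1-2, the joining segments of the clones described below, lie at chr6:41533864-41533911 and chr6:41534001-41534048 on the same strand, each as 1 exon, downstream of the diversity segment TRBD1 at chr6:41533201-41533212. The germline sequences that meet in the CDR3 are shown first, because the clones are read against them.
TRBV4 from the codon of the CDR3 cysteine to its end: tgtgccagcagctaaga
TRBD1: gggacagggggc
TRBD2: gggactgggggggc
TRBJ1-1 to the codon of the CDR3 phenylalanine: caaacacagaagtcttcttt
TRBJ1-2 to the codon of the CDR3 phenylalanine: caaactccgactacaccttc

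Clones are called abundant here when they made up at least 0.1% of the CD8+ tumor reads of a mouse, as the mean of both tumors. The 30 abundant TRBV4 clones are named by the mouse and a letter that runs in order of this share, so that clone 6a was the most abundant one of mouse 6. Of these, 8 used TRBJ1-2, and all 8 had a CDR3 of 13 residues. They are shown 5′ to 3′, because they make up the pairing described below. Lower case marks bases that match TRBV4 from the left or the J segment from the right, and capitals mark the bases between.
Clone 6a: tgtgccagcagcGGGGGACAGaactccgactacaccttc
Clone 6d: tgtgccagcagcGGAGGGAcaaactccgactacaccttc
Clone 6f: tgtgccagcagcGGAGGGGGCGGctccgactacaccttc
Clone 6g: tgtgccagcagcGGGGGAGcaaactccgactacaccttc
Clone 6h: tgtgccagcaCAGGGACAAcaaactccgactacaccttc
Clone 7a: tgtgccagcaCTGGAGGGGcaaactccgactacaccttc
Clone 7d: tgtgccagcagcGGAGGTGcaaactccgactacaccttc
Clone 7e: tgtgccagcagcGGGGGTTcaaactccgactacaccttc
The capitals span 7 to 11 bases, and the longest run of them found in TRBD1 or TRBD2 was 3 to 7 bases. Clones 6g and 7d encode the same CDR3 with different bases in the capitals.

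The other group of related clones used TRBJ1-1 and had a CDR3 of 10 residues.
Clone 5d: tgtgccagcagcGGAacagaagtcttcttt
Clone 6c: tgtgccagcagcGGGacagaagtcttcttt
Clone 7j: tgtgccagcTCAGGGacagaagtcttcttt
Clone 8c: tgtgccagcagcaacacagaagtcttcttt
Clone 8e: tgtgccagcagctCCCCCgaagtcttcttt
Clone 8g: tgtgccaTATcaaacacagaagtcttcttt
Clones 5d, 6c and 7j encode the same CDR3 by a different nucleotide sequence in each mouse. In clone 8c, 0 bases lie between the parts that match TRBV4 and TRBJ1-1.

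By reads, TRBV4 took on average a larger and more variable share of CD8+ tumor repertoires than of the other groups. Its share in the left and right tumor was 18.0% and 16.6% in mouse 5, 15.7% and 11.4% in mouse 6, 7.54% and 5.21% in mouse 7, and 5.01% and 4.90% in mouse 8. All 8 values lay above those of the CD8+ dLNs, which ranged from 4.19% to 4.72% with a median of 4.62%. This order is favored by the choice of the segment, and it was not counted for the other V segments. Over the mice, the TRBV4 share of reads was 10.5% ± 5.87 in CD8+ tumors and 4.53% ± 0.231 in CD8+ dLNs (SD, n = 4). Among the 25 V segments, TRBV4 had rank 2 in mean share of CD8+ tumor reads, after TRBV26 with 19.1%. The 95% Wilson intervals, computed on estimated cells, had a half-width of at most 0.257 percentage points. They cover counting error only, since the protocol had no molecular identifiers. A larger share of reads can come from more cells or from more TCRβ mRNA per cell, which cannot be told apart here.

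**Figure D1:**
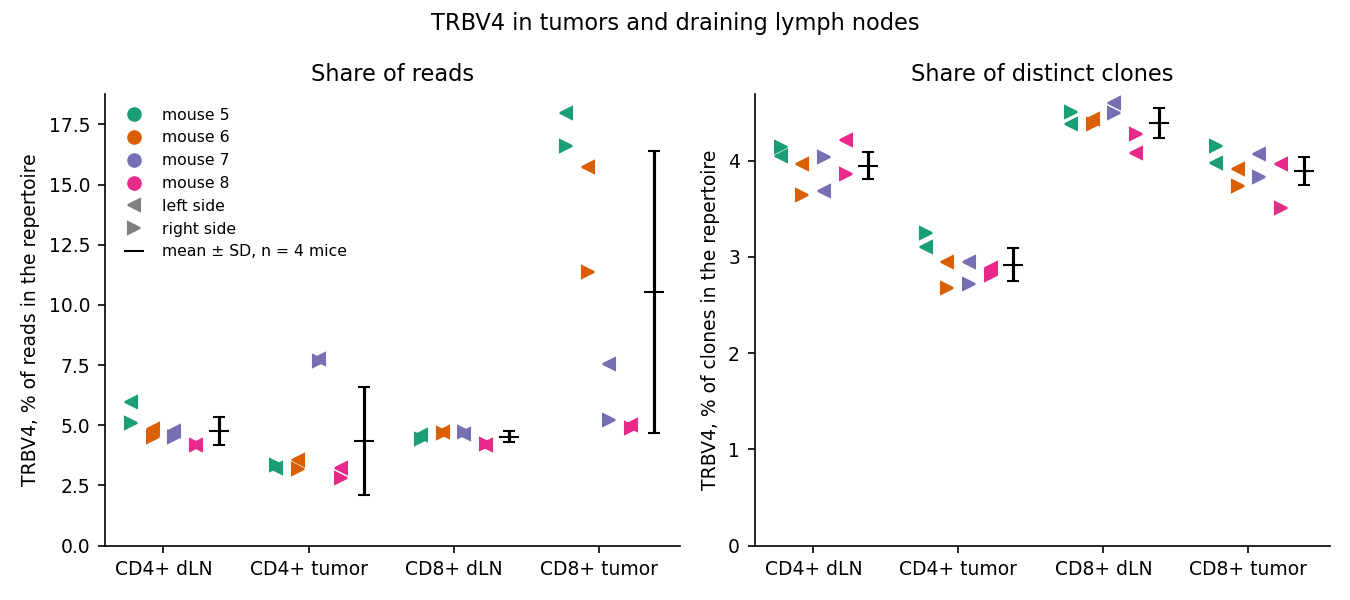
TRBV4 share of reads (left panel) and of distinct clones (right panel), in percent of a repertoire, in CD4+ and CD8+ T cells of dLNs and tumors. Each triangle is 1 repertoire, pointing left or right for the side and colored by mouse, and the black marks give mean ± SD over 4 mice. By reads, the CD8+ tumors of mouse 5 reach 18.0%, whereas by clones all CD8+ tumors lie between 3.51% and 4.16%.

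Abundant clones held most of these reads. TRBV4 clones of at least 0.1% of their own repertoire took 9.29% ± 6.10 of the CD8+ tumor reads (SD, n = 4), with 3.29% to 16.9% in the 8 repertoires. In mouse 5, clone 5a alone made up 47.3% of the TRBV4 reads in the left tumor and 45.2% in the right one. The clones under 0.1%, a class formed after the data were seen, leave out the abundant clones for which the segment was chosen, so their values are a description with no test. Over the mice, this class held a mean of 26.9% of the reads in CD8+ tumors but 98.7% in CD8+ dLNs, and 60.3% in CD4+ tumors against 88.2% in CD4+ dLNs. Within it, TRBV4 took 4.74% ± 0.393 in CD8+ tumors and 4.53% ± 0.185 in CD8+ dLNs (SD, n = 4). In CD4+ T cells the values were 2.71% ± 0.173 in tumors and 4.22% ± 0.217 in dLNs (SD, n = 4).

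When each clone was counted once, the TRBV4 share was lower in tumors than in dLNs in both subsets. The TRBV4 share of clones in the 8 repertoires ranged from 2.68% to 3.25% in CD4+ tumors (median 2.92%) and from 3.64% to 4.22% in CD4+ dLNs (median 4.00%), with no overlap. It ranged from 3.51% to 4.16% in CD8+ tumors (median 3.94%) and from 4.08% to 4.60% in CD8+ dLNs (median 4.40%), and 1 tumor, the right one of mouse 5, lay above the lowest dLN. On the log2(percent + 0.01) scale, tumor minus dLN was -0.44 in CD4+ T cells (SE 0.054, limma over all V segments, Benjamini-Hochberg adjusted p = 3.22e-05). It was -0.17 in CD8+ T cells (SE 0.035, limma adjusted p = 0.000967). The direction held in 4 of 4 mice in each subset. Many V segments differed in these comparisons. In CD4+ T cells 59.1% of the 22 segments tested passed, 22.7% with a higher and 36.4% with a lower share in tumors, and in CD8+ T cells 90.9% passed, 31.8% with a higher and 59.1% with a lower share. The CD8+ comparison uses the tumors whose abundant clones led to the choice of the segment, but in it each clone counted once.

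The decrease was smaller in CD8+ than in CD4+ T cells. CD8+ tumor minus dLN exceeded CD4+ tumor minus dLN by 0.26 in log2 share of clones (SE 0.064, limma interaction, adjusted p = 0.00156), in a comparison that 68.2% of the segments passed.

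Between the subsets, TRBV4 took a larger share of clones in CD8+ than in CD4+ T cells at both sites. The share was 3.89% ± 0.146 in CD8+ and 2.92% ± 0.171 in CD4+ tumors (SD, n = 4), a log2 difference of 0.42 (SE 0.053, limma adjusted p = 2.06e-05). In dLNs the share was 4.39% ± 0.156 in CD8+ and 3.95% ± 0.140 in CD4+ T cells (SD, n = 4), a log2 difference of 0.15 (SE 0.036, limma adjusted p = 0.00224). In tumors 86.4% of segments passed, with 27.3% higher and 59.1% lower in CD8+ T cells. In dLNs 95.5% passed, with 40.9% higher and 54.5% lower in CD8+ T cells.

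By reads, the differences outside CD8+ tumors did not pass the test. The TRBV4 share was 4.35% ± 2.24 in CD4+ tumors and 4.76% ± 0.572 in CD4+ dLNs (SD, n = 4). The left and right CD4+ tumors held 3.22% and 3.34% in mouse 5, 3.58% and 3.18% in mouse 6, 7.75% and 7.65% in mouse 7, and 3.25% and 2.83% in mouse 8. Mouse 7 lay apart from the others, and its most abundant CD4+ TRBV4 clone, with TRBJ2-4 and 15 residues, made up 5.94% and 5.81% of the CD4+ reads of its tumors. The log2 difference between CD4+ tumors and dLNs was -0.24 (SE 0.285, limma adjusted p = 0.676), whereas without mouse 7 it was -0.56 (limma adjusted p = 0.0160). Over all mice 27.3% of segments passed there, 4.55% higher and 22.7% lower in tumors. CD8+ and CD4+ dLNs differed by -0.07 in log2 read share (SE 0.085, limma adjusted p = 0.485), which became 0.011 without mouse 5. Of the segments 90.9% passed in that comparison, 40.9% higher and 50% lower in CD8+ T cells.

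Over the 16 values of 4 mice in 4 groups, TRBV14 and TRBV13-3 had the clone shares that most followed those of TRBV4, with Spearman's rho of 0.774 and 0.715. Like that of TRBV4, the mean clone share of TRBV14 was lowest in CD4+ tumors (1.66%) and highest in CD8+ dLNs (4.90%). For TRBV13-3 these means were 5.53% and 6.69%. The values come from the same libraries and the segments of a repertoire share its total, so these correlations are descriptions.

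The pairing of TRBV4 with TRBJ1-2 in CD8+ tumors was high by reads in mice 6 and 7 and not by clones. TRBJ1-2 held 44.6% of the TRBV4 reads in mouse 6 and 36.6% in mouse 7, but 0.363% in mouse 5 and 5.05% in mouse 8. The left tumor had 48.7% and the right 38.8% in mouse 6, and 41.4% and 29.8% in mouse 7. Counted by clones, TRBJ1-2 was used by 3.43% to 4.54% of TRBV4 clones in the 4 mice, and by 4.74% to 5.16% of the clones of all other V segments. In CD8+ dLNs, TRBJ1-2 held 6.32% ± 2.27 of the TRBV4 reads and 4.47% ± 0.292 of the TRBV4 clones (SD, n = 4). In CD4+ T cells its share of the TRBV4 reads was 2.48% ± 1.72 in tumors and 3.68% ± 1.23 in dLNs (SD, n = 4).

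**Figure D2:**
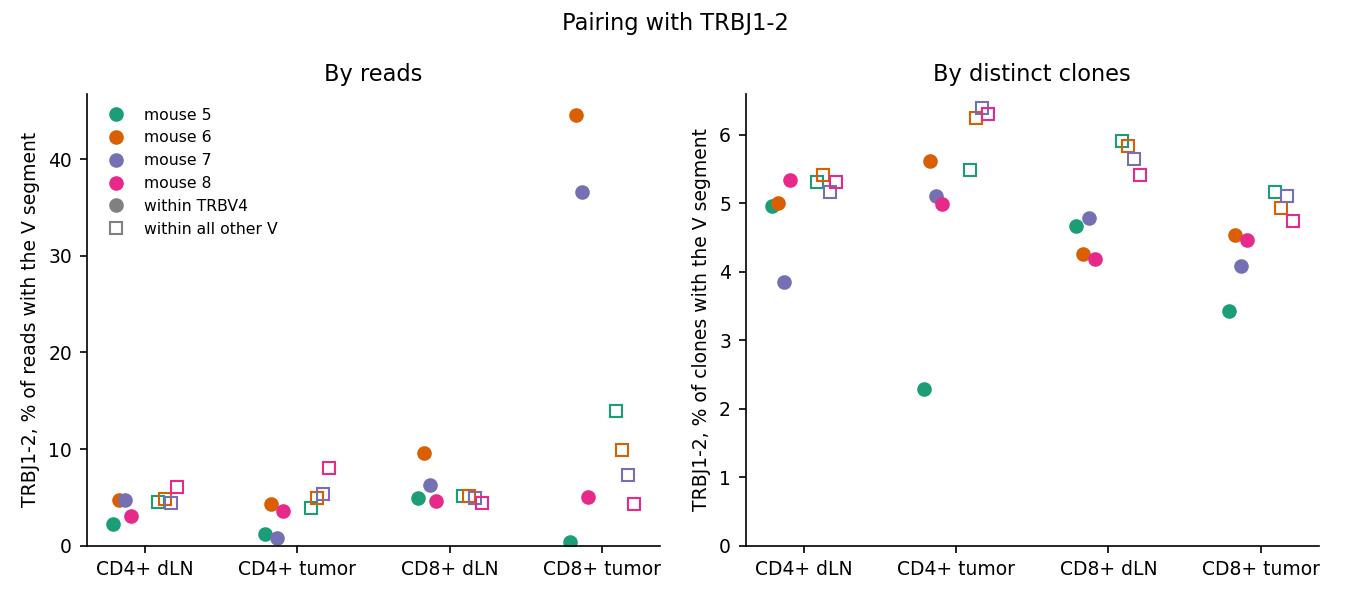
TRBJ1-2 share, in percent, of the reads (left panel) and the distinct clones (right panel) with TRBV4 (filled circles) and with all other V segments (open squares), for each mouse (color) and group. By reads, the CD8+ tumors of mice 6 and 7 stand at 44.6% and 36.6% for TRBV4, while by clones the TRBV4 values in CD8+ tumors lie at or below 4.54%.

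High shares of TRBJ1-2 were also seen within other V segments. In mouse 6, TRBV20 had 74.8% of its CD8+ tumor reads with TRBJ1-2, more than TRBV4. In mouse 7, TRBV4 had the highest value of all V segments, followed by TRBV13-1 with 30.5%. In mouse 5, TRBV12-1 had 56.7%, and in mouse 8, TRBV20 had 45.3%. Among the abundant clones, 26.7% of the 30 TRBV4 clones used TRBJ1-2, against 9.13% of the 263 clones of other V segments.

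The other J segments with the highest shares of TRBV4 reads in CD8+ tumors were TRBJ2-1, TRBJ1-1 and TRBJ2-3. TRBJ2-1 held 47.3% in mouse 5, 33.4% in mouse 6, 3.70% in mouse 7 and 12.7% in mouse 8. TRBJ2-3 held 44.1% in mouse 5, home of clones 5b and 5c, and 0.383% to 2.09% in the other mice. TRBJ1-1 ranged from 4.53% in mouse 5 to 27.4% in mouse 8. By clones the mice were close to each other, with 15.7% ± 0.286 of the TRBV4 clones for TRBJ2-1, 10.2% ± 0.938 for TRBJ2-3 and 6.77% ± 0.435 for TRBJ1-1 (SD, n = 4).

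The abundant TRBV4 clones of CD8+ tumors numbered 4 in mouse 5, 8 in mouse 6, 10 in mouse 7 and 8 in mouse 8, and used 8 J segments. In mouse 5, clone 5a with TRBJ2-1 held 8.50% of the reads of the left tumor and 7.51% of the right, with rank 3 in the whole repertoire. Clone 5b with TRBJ2-3 held 6.21% and 5.66%, clone 5c, also with TRBJ2-3, a mean of 1.62%, and clone 5d 0.542% and 0.653%. The next clone, with TRBJ1-1 and 13 residues, held 0.161% (left) and 0.0321% (right). Its mean of 0.0965% lay just under the limit for abundant clones, and it was called as different between sides by the Fisher criteria described with the left to right ratios. Mouse 5 thus had few but large TRBV4 clones.

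In mouse 6, clone 6a held 3.97% (left) and 1.96% (right). Clone 6b with TRBJ2-1 held 2.90% and 2.47%, and clone 6c with TRBJ1-1 held 2.77% and 1.69%. Clone 6d held 2.06% and 1.40%. Clone 6e with TRBJ2-1, which among the 30 clones kept the fewest TRBV4 bases (4), held 1.53% and 1.71%. The other TRBJ1-2 clones were 6f with 1.05% and 0.688%, 6g with 0.383% and 0.232%, and 6h with 0.159% and 0.0952%. Mouse 6 therefore held 5 clones of the TRBJ1-2 group side by side.

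In mouse 7, clone 7a held 2.09% (left) and 0.438% (right). It was followed by 7b with TRBJ2-7 (1.23% and 0.608%), 7c with TRBJ1-1 (0.794% and 0.776%), and the TRBJ1-2 clones 7d (0.516% and 0.517%) and 7e (0.334% and 0.372%). Clone 7j was low, with 0.131% and 0.0733%. In mouse 8, no TRBV4 clone exceeded 0.798% of a tumor. Clone 8a with TRBJ2-7 held 0.718% and 0.798%, 8b with TRBJ2-5 0.669% and 0.447%, 8c 0.534% and 0.444%, 8d with TRBJ2-1 0.571% and 0.361%, 8e 0.297% and 0.581%, and 8g 0.292% and 0.459%. In this mouse TRBJ1-1 clones of 10 residues, and no TRBJ1-2 clone, were among the abundant ones.

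Clones of different mice were then compared by CDR3. Of the 328 pairs of abundant TRBV4 clones from different mice, 24 (7.32%) had CDR3s of equal length with at most 2 differing residues. In 4 of these pairs the encoded CDR3s were identical, in 9 they differed by 1 residue and in 11 by 2, and 0 pairs shared the nucleotide sequence. The pairs fell into the groups shown above, 12 with TRBJ1-2 and 12 with TRBJ1-1, and took in 14 of the 30 clones. All 12 TRBJ1-2 pairs joined mice 6 and 7, and each of the 12 TRBJ1-1 pairs included clone 5d, 6c or 7j. Without mouse 6 or without mouse 7, 7 pairs were left, and without mouse 8, 15.

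Similar CDR3s were also found within other V segments. The share of similar pairs was 3.59% of the 1893 pairs of all other V segments together. It was 27.4% for TRBV20 (17 of 62 pairs), 6.78% for TRBV26 (29 of 428 pairs) and 1.04% for TRBV5 (5 of 479 pairs), the segment with the most abundant clones. The value of TRBV4 lay between those of TRBV20 and TRBV26.

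A form that covers 7 of the 8 TRBJ1-2 clones, all but 6f, was chosen after the data were seen and followed over all samples. It comprised CDR3s of 13 residues with cysteine, alanine and serine at the start, a glycine at position 5 and, at the end, the 6 residues that TRBJ1-2 encodes from its asparagine on. With TRBV4 the form was found in 27 nucleotide clones with 18 amino acid sequences, and in all 4 mice. In CD8+ tumors these clones held a mean of 5.14% of the reads in mouse 6 and 2.28% in mouse 7, but 0.0249% in mouse 5 and 0.140% in mouse 8. In CD8+ dLNs they held 0.224% in mouse 6, 0.110% in mouse 7, 0.0638% in mouse 8 and 0.0318% in mouse 5. In CD4+ T cells with TRBV4, no mouse had more than 0.00446% in tumors or 0.000591% in dLNs. With other V segments the form was also read in CD8+ tumors, at 0.963% in mouse 6 and at no more than 0.0197% in the other mice, and in CD4+ tumors at 1.36% in mouse 8 and at no more than 0.165% in the other mice. In dLNs the form with other V segments held 0.0483% to 0.0759% of the CD8+ reads and 0.0797% to 0.172% of the CD4+ reads of a mouse. Summed over the mice, CD8+ tumors had 218 clones of the form with other V segments and 29 with TRBV4, and CD8+ dLNs had 185 and 24. These counts are not shares, since the CD8+ tumors held 12629 TRBV4 clones among 325321 clones of all V segments. Among the 29 TRBV4 clones of this form in CD8+ tumors, counted per mouse, position 4 was serine in 19 and threonine in 8. Position 6 was glycine in 19 and threonine in 7, and position 7 was glutamine, threonine or alanine in 6 each and serine in 4.

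The CDR3 of clones 5d, 6c and 7j was encoded with TRBV4 and TRBJ1-1 by 5 nucleotide sequences over the 4 mice, each in 1 mouse. Of these sequences, 1 was read in only 1 repertoire of mouse 6, at 0.00147%. It differed from clone 6c of that mouse by 1 base, within the part from TRBJ1-1. Whether it arose separately or by an error of PCR or sequencing was not tested. In mouse 8 this CDR3 was read in the left dLN, at 0.00665% of the CD8+ reads, and 0 reads were found in either CD8+ tumor. By reads, this allows shares of up to 0.000109% (left) and 9.59e-05% (right), limits that would be higher by sorted cells. With other V segments this CDR3 took a mean of 0.000400% of the CD8+ tumor reads.

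The tumors of a mouse shared most of their TRBV4 reads. The overlap, which is the geometric mean over both sides of the percentage of TRBV4 reads in clones found on both, was 92.1% ± 5.86 in CD8+ tumors and 14.3% ± 2.60 in CD8+ dLNs (SD, n = 4). Over all V segments it was 82.5% ± 6.47 and 9.51% ± 0.867. In CD4+ T cells, the TRBV4 overlap was 87.9% ± 5.50 in tumors and 51.6% ± 4.25 in dLNs (SD, n = 4), beside 84.5% ± 2.90 and 47.6% ± 2.11 over all V segments.

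Some of the abundant clones had unequal shares in the tumors of both sides. By the criteria of the study's methods (Fisher's exact test on estimated cells, q-value under 0.01, fold above 2), 3 of the 30 abundant TRBV4 clones (10.0%) differed between sides, against 15.7% of all 293 abundant clones. The test covers counting error only, since each side had 1 tumor per mouse, and does not measure the spread between tumors. The clones called were clone 6a with a left to right ratio of 2.02, clone 7a with 4.77 and clone 7b with 2.03. All were higher in the left tumor, and 6a and 7b were close to the fold limit of 2. Just under this limit lay clones 7j and 7g with left to right ratios of 1.78 and 1.75, and clone 8e with a right to left ratio of 1.96.

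The fragments show the spread within a tumor. Clone 6a held 4.27% and 3.74% of the left fragments and 2.53% and 1.30% of the right ones. Clone 7a held 1.57% and 2.54% of the left fragments and 0.392% and 0.491% of the right ones, and clone 7b 1.41% and 1.07% against 0.768% and 0.424%. In each of these clones both left fragments lay above both right fragments. This was so for 16 of the 30 abundant clones, while for 4 both right fragments lay above the left and for 10 the fragments overlapped. Fragments were not compared this way for abundant clones of other V segments, so these counts are no result about TRBV4.

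In mouse 6, 7 of the 8 abundant TRBV4 clones were higher in the left tumor, among them all 5 TRBJ1-2 clones, which summed to 7.63% (left) and 4.38% (right). Of the 263 abundant clones of other V segments, 261 were read in both tumors of their mouse, and the other 2, with 0 reads on one side, are left out of the counts that follow. In mouse 6, 33 of 61 such clones were higher in the left tumor. In mouse 7, 8 of 10 abundant TRBV4 clones were higher in the left tumor, but of its 3 TRBJ1-2 clones only 7a was. In mice 5 and 8, 2 of 4 and 4 of 8 were higher in the left tumor. Of the abundant clones of other V segments read in both tumors, mouse 5 had 30 of 51, mouse 7 had 42 of 79 and mouse 8 had 29 of 70 higher on that side. With 1 tumor per side and mouse, the side and the single tumor cannot be told apart.

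**Figure D3:**
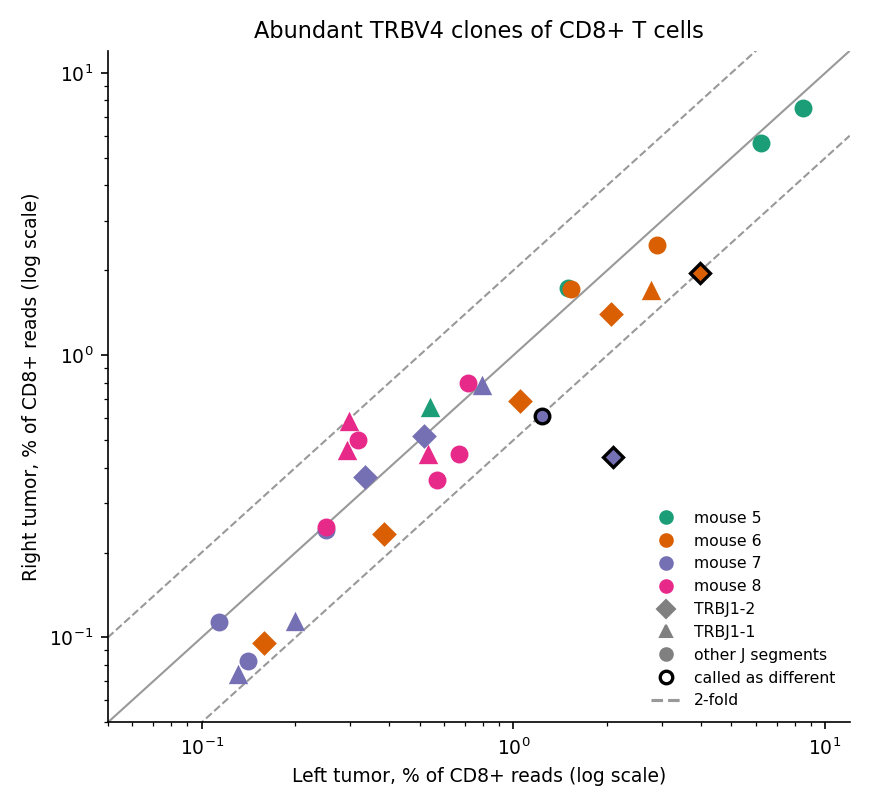
Share of CD8+ reads in the left (x axis) and right (y axis) tumor, in percent on log scales, for the 30 abundant TRBV4 clones, with colors for mice and symbols for J segments. The solid line marks equal shares, the dashed lines a 2-fold difference, and black outlines the 3 clones called as different, which lie below the lower dashed line with ratios of 2.02, 2.03 and 4.77.

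Over clones of any size, 26 of 12629 TRBV4 clones (0.206%) were called as different, 15 of them higher in the left tumor, while over all V segments 0.167% of clones were called. The calls numbered 5 in mouse 5 (0.299% of its TRBV4 clones, 0.121% of all clones) and 5 in mouse 6 (0.190% and 0.16%). They numbered 11 in mouse 7 (0.195% and 0.157%) and 5 in mouse 8 (0.186% and 0.218%). The TRBV4 share was thus near the background. Of the 23 called clones that were not abundant, 1 clone of mouse 8, chosen for mention after its values were seen, had the TRBJ1-2 form and held 0.120% (left) and 0.00457% (right).

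The abundant clones were also looked up in the CD8+ dLNs of the same mouse. Since they were selected on a high share in tumors, a lower share in dLNs is favored by the choice, and the ratios below are descriptions. Of the 30 clones, 25 were found in both CD8+ dLNs, 3 in 1 and 2 in none. Abundant clones of other V segments were not looked up, so these counts cannot be called particular to TRBV4. For the TRBV4 clones found, the ratio of tumor to dLN share, as means of both sides, ranged from 2.62 to 217 with a median of 39.0. The highest share in a dLN was 0.178%, held by clone 5a in the left dLN, against 0.0159% in the right. Clone 6a held 0.0815% (left) and 0.136% (right) in the dLNs, the reverse order of its tumors. Clone 7c held 0.0803% and 0.0808%, and clone 8h with TRBJ2-5 0.0568% and 0.132%. By the mean of both sides, 5a, 6a, 7c and 8h were the leading TRBV4 clones of the CD8+ dLNs of their mice. Clone 7a was read in neither dLN, while it held 2.09% of the left tumor. By reads, this allows shares of up to 0.000825% (left) and 0.000561% (right) in the dLNs. By sorted cells, with 6 reads drawn per cell, these limits would be higher.

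**Figure D4:**
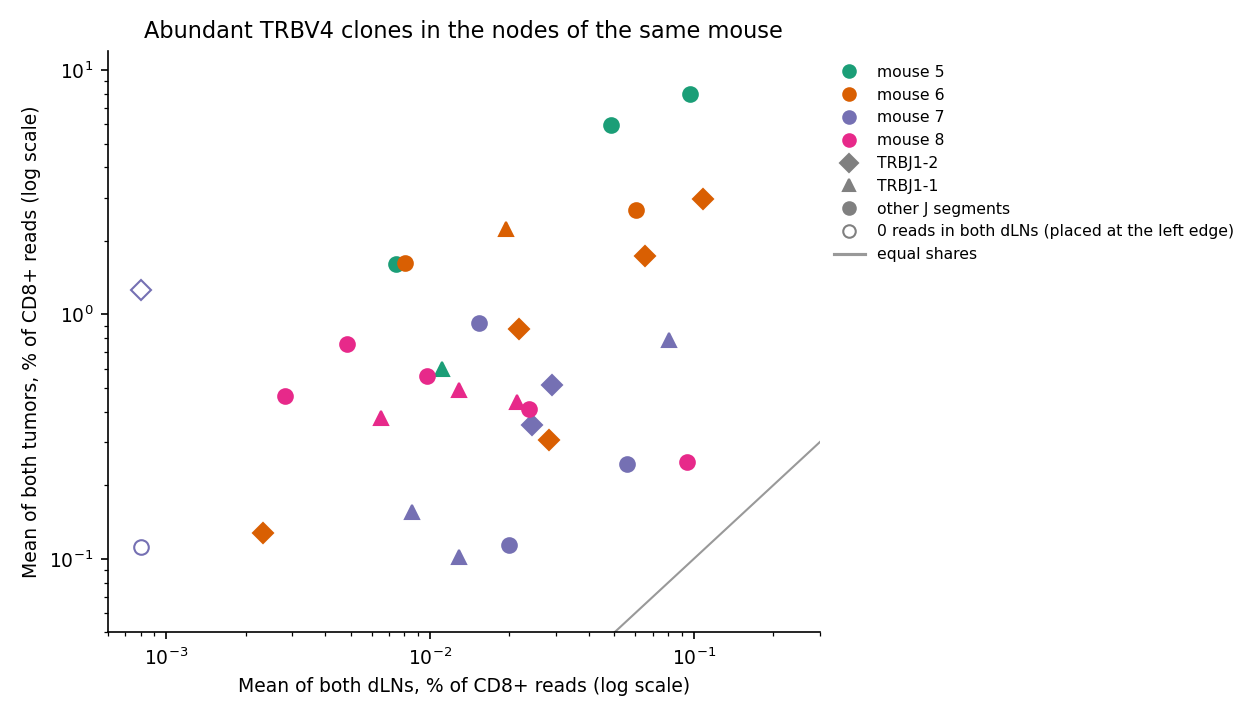
Share of CD8+ reads of the 30 abundant TRBV4 clones in the dLNs (x axis) and tumors (y axis) of the same mouse, each as the mean of both sides in percent on log scales, with colors for mice and symbols for J segments. All points lie above the line of equal shares, a position favored by the selection on tumor share, and the 2 open symbols at the left edge are clones with 0 reads in both dLNs.

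As nucleotide sequences, 11 of the 30 clones were also read in a library of another mouse, and 3 exceeded 0.01% there. The abundant clones of other V segments were not counted in this way, and carry-over between libraries was not tested. Clone 6a was read in mouse 5 at 0.0277% (left) and 0.0192% (right) of the CD8+ tumors and at 0.0561% of the right dLN. Clone 8c held 0.0690% (left) and 0.0293% (right) of the CD8+ tumors of mouse 7, and clone 8h held 0.0625% and 0.0495% there. In the CD4+ tumors of their own mouse, 19 of the 30 clones were read, at no more than 0.00726%. Over all TRBV4 clones of CD8+ tumors, 3.93% were found in more than 1 mouse by nucleotide sequence and 8.52% by amino acid sequence, beside 3.55% and 9.24% for all other V segments.

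The leading TRBV4 clones of CD4+ T cells were different ones. In mouse 7, the clone with 5.94% and 5.81% of the CD4+ tumor reads held 0.291% (left) and 0.220% (right) of the CD4+ dLN reads. In mouse 6, a TRBJ1-6 clone held 0.824% and 0.488% in tumors and 0.0797% and 0.0687% in dLNs. In mouse 5, a TRBJ2-4 clone held 0.272% and 0.270% in tumors and 0.387% and 0.180% in dLNs. In mouse 8, a TRBJ1-4 clone held 0.401% and 0.280% in tumors and 0.256% and 0.162% in dLNs. These clones were picked by their share in tumors, which favors tumor over dLN values. The next clone of each mouse held 0.207% and 0.261% of the CD4+ tumors in mouse 5, 0.482% and 0.365% in mouse 6, 0.158% and 0.161% in mouse 7, and 0.226% and 0.271% in mouse 8. In the CD4+ dLNs, by the mean of both sides, a TRBJ2-7 clone led in mouse 5 with 0.514% and 0.393% (0.125% and 0.2004% in the tumors), another TRBJ2-7 clone in mouse 7 with 0.292% and 0.273%, and the TRBJ1-4 clone above in mouse 8.

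By the same mean, the leading TRBV4 clone of the CD4+ dLNs of mouse 6 used TRBJ2-5, and a clone of mouse 5 encoded the same CDR3 with another nucleotide sequence. Both are shown because the CDR3 was frequent in CD4+ tumors and dLNs of both mice.
Mouse 5, TRBJ2-5: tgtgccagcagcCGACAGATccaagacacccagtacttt
Mouse 6, TRBJ2-5: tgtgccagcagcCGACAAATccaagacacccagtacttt
In mouse 5 the clone held 0.170% (left) and 0.115% (right) of the tumors and 0.542% and 0.332% of the dLNs. In mouse 6 it held 0.482% and 0.365% of the tumors and 0.572% and 0.385% of the dLNs.

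The CDR3s of TRBV4 clones, counted once each, were slightly longer in tumors than in dLNs. In CD4+ T cells, the mean length was 13.68, 13.59, 13.68 and 13.71 residues in the tumors of mice 5 to 8 and 13.37, 13.54, 13.56 and 13.48 in the dLNs, with no overlap. The difference was 0.179 residues (longer in 4 of 4 mice, exact permutation test over 70 splits, two-sided, adjusted p = 0.0286, the smallest this test can give). In CD8+ T cells, the means were 13.99, 13.99, 13.98 and 14.01 in tumors and 13.94, 13.88, 13.91 and 13.94 in dLNs, also with no overlap. The difference was 0.0729 residues (longer in 4 of 4 mice, exact permutation test, adjusted p = 0.0286). For clones of all other V segments, tumors exceeded dLNs by 0.111 residues in CD4+ and 0.131 residues in CD8+ T cells. With sign changes within mice, the exact permutation p was 0.125 for both subsets, the smallest that 4 mice allow. When clones under 4 reads (CD4+) or 6 reads (CD8+) were left out, the adjusted p was 0.0571 in both (exact permutation test).

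Weighted by reads, the mean length was 13.77, 11.90, 12.41 and 12.18 residues in the CD8+ tumors of mice 5 to 8, against 13.70 to 13.91 in the dLNs (difference -1.23 residues), a description, since the abundant clones set these means. CDR3s of 10 residues made up 0.957% to 1.35% of the TRBV4 clones of CD8+ tumors but 3.71%, 16.8%, 17.96% and 26.4% of the TRBV4 reads in mice 5 to 8. CDR3s of 13 residues made up 19.6% to 22.1% of the clones and 37.0%, 45.3%, 44.5% and 17.5% of the reads. Clones of several J segments had these lengths. At 13 residues, the most abundant clone was 5b with TRBJ2-3 in mouse 5, 6a and 7a with TRBJ1-2 in mice 6 and 7, and 8f with TRBJ2-4 in mouse 8. At 10 residues it was 5d, 6c and 8c with TRBJ1-1 in mice 5, 6 and 8, and 7b with TRBJ2-7 in mouse 7. In CD8+ dLNs, 10 residues held 1.47% to 2.29% and 13 residues 19.6% to 24.6% of the TRBV4 reads. The 30 abundant clones had 9 to 16 residues with a median of 13, and 12 of them had 13. In CD4+ tumors, mouse 7 had 80.0% of its TRBV4 reads at 15 residues, the length of its leading clone.

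**Figure D5:**
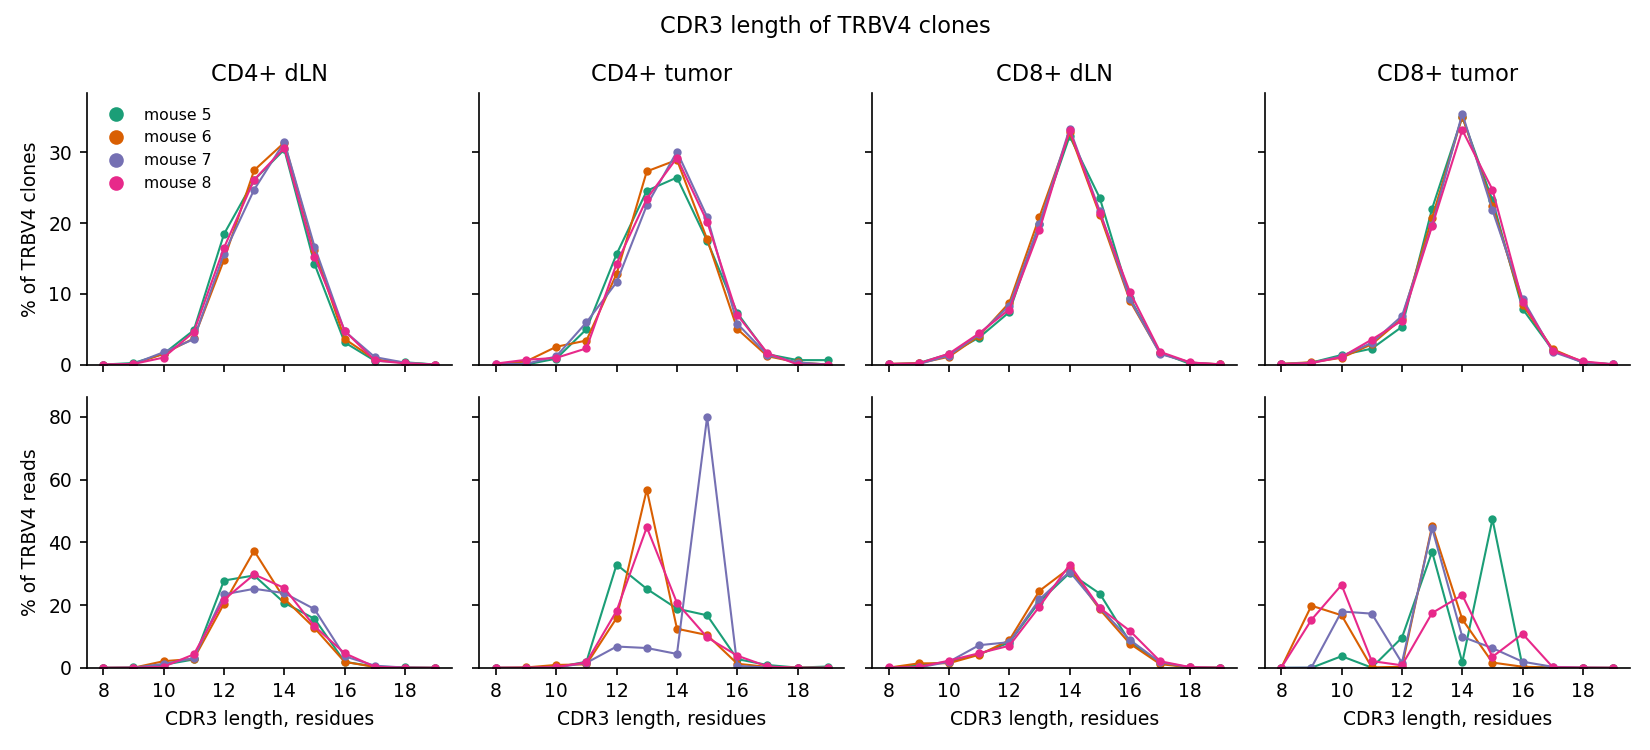
CDR3 length of TRBV4 clones, in residues, against the percent of TRBV4 clones (upper row) and of TRBV4 reads (lower row), with 1 line per mouse for each group. By clones the lines of a group run together with the highest mean at 14 residues, and by reads the tumors show peaks of single mice, such as 80.0% at 15 residues in the CD4+ tumors of mouse 7.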

How the data were processed

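TCRβ libraries of CD4+ and CD8+ T cells from tumors and dLNs of 4 mice were analysed. The authors trimmed the reads with Cutadapt 3.2, filtered them and built clones on IMGT segments with MiXCR. The tables the authors deposited give, per clone, the count of reads and the fraction of the library. The libraries carry no molecular identifiers, so PCR duplicates enter the counts. The segment boundaries in the tables enter no value given here, and 0 columns were of unknown samples.

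The deposited counts were above the 6 reads per sorted cell of the study's methods, so each library was drawn once without replacement (fixed seed) to that depth with the study's cell numbers, and the counts as deposited served as an alternative. Clones were defined by V, J and CDR3 bases, and both fragments of each tumor were summed. Shares of V segments were means of left and right per mouse, tested for segments of at least 0.1% on log2(percent + 0.01) with limma 3.58.1 and Benjamini-Hochberg adjustment over 22 segments (threshold 0.05). CDR3 lengths were compared by exact permutation over 70 splits of 4 and 4 mice, adjusted over 2 tests. Left and right clones were compared as in the study's methods, with Storey's q computed here. Wilson intervals are at 95%, and a count of 0 allows 3 reads of the total. This limit takes reads as independent and would be higher by sorted cells. Each test was checked on simulated data.

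Same-numbered samples come from the same mouse, so the mouse also served as a replicate block. The correlation of V segment deviations between groups of the same mouse ranged from -0.40 to 0.58, with a median of 0.30 for clone shares.

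The segment and the rules for clones were chosen with earlier results of these data known. Named were the 5 CD8+ and 2 CD4+ TRBV4 clones per mouse with the highest mean share in tumors, the highest in dLNs of each subset, clones in similar pairs, abundant clones called as different, TRBJ1-2 and the 3 J segments with the highest share, and the 2 V segments most like TRBV4. Germline sequences and coordinates are those of GENCODE vM21 (GRCm38), whereas the deposited files hold no coordinates. Alternatives were the depth, seed, minimum reads of 2 and of 4 or 6, equal depth of 131070 reads, clones by amino acid sequence, removal of clones 100 times more frequent in another mouse, other pseudocounts and filters, edgeR 4.0.16, other thresholds, and leaving out each mouse. Python 3.11.15 and R 4.3.3 were used.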

Additional observations from a re-analysis of the deposited data

Results flagged for a closer look

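Of 20 groups of 4 mice checked for a mouse apart from the others, 2 met the criterion, where chance alone flags about 1 in 20. In CD4+ tumors, mouse 7 had a TRBV4 share of reads of 7.70%, and the gap to the next mouse was 0.926 of the range of the group. The TRBV4 share of clones of this mouse was 2.84%, and 1 clone held 5.88% of its CD4+ tumor reads. In CD4+ tumors, mouse 5 had the highest TRBV4 share of clones with 3.17%, and the gap to the next mouse was 0.900 of the range.

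The difference between tumor and dLN in the TRBV4 share of clones differed between the subsets by 0.26 on the log2 scale (CD8+ minus CD4+, limma interaction, adjusted p = 0.00156). With the mouse as a block the adjusted p was 0.000706.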

How the results depend on the processing

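All 4 comparisons of the TRBV4 share of clones kept their direction and passed the threshold under each of 17 alternatives, with log2 differences from -0.47 to -0.41 (CD4+ tumor against dLN), -0.24 to -0.16 (CD8+ tumor against dLN), 0.38 to 0.44 (CD8+ against CD4+ tumor) and 0.13 to 0.19 (CD8+ against CD4+ dLN) and adjusted p of at most 0.0449. Leaving out 1 mouse, the read share in CD4+ tumors against dLNs ranged from -0.56 to -0.064 in log2, passing only without mouse 7, and that in CD8+ against CD4+ dLNs from -0.092 to 0.011, turning without mouse 5. The CDR3 length difference weighted by reads was 0.286 residues in CD4+ (adjusted p = 0.743, exact permutation) and -1.23 in CD8+ T cells, the latter a description. With minimums of 4 or 6 reads it was 0.196 and 0.0702 residues (adjusted p = 0.0571 for both, exact permutation). The cause of these changes was not tested. A replicate block on the mouse left length differences at 0.179 and 0.0729 residues, where the exact permutation p of 0.125 is the smallest possible, and the block changed no call of a share, as for the log2 difference of -0.44 in CD4+ T cells. Similar pairs numbered 13 at 1 differing residue, 6 at a clone share of 0.5%, 138 at 0.01%, and 7 to 19 without 1 mouse. Clones called between sides numbered 43 at a fold above 1.5 and 15 to 21 without 1 mouse, the lowest without mouse 7.

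Depth limits the clone counts: in the drawn tumor fragments, 52.8% to 89.4% of the clones of the smaller fragment were absent from the other.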
